A study of Oryctolagus cuniculus with 4 samples.

Results

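PIGR, JCHAIN and MZB1 are 3 of the 18475 genes in the count matrices, and they were taken by their symbols as the rows ENSOCUG00000014317, ENSOCUG00000027219 and ENSOCUG00000006942. They were selected on UMI levels of these same libraries by cell class and sample, and the choice was made with earlier results known, so their levels by cell class are described without a test, and group tests from fits over all genes are given as those fits returned them, not as independent support. Mucosa of rabbit bladder was dissociated with collagenase and profiled by droplet-based single-cell RNA sequencing, which tags each captured mRNA with a unique molecular identifier (UMI). The normal group (Normal_1 and Normal_2) came from bladder mucosa under homeostasis. The injured group (Injury_1 and Injury_2) was taken 10 days after a focal resection of the mucosa, when new urothelium had just closed over the wound. Both groups were adult New Zealand rabbits, no transgene or drug was involved, and the labels do not say whether a library pooled animals. The 2 libraries of a group are taken as separate samples because the labels list them so, and p-values measure the spread between these samples only.

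Secretory antibodies reach a mucosal surface through a pair of cell types. Plasma cells under the epithelium join IgA or IgM units with the J chain, encoded by JCHAIN, and MZB1 encodes a chaperone of the endoplasmic reticulum that helps antibody assembly in B cells and plasma cells. The epithelial cell supplies the polymeric immunoglobulin receptor, encoded by PIGR, which binds J chain-containing antibodies on the basal side, carries them through the cell and is cut on the luminal side, so that a piece of the receptor leaves with the antibody. PIGR is best known from gut, airway and exocrine glands.

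After the study's limits on UMIs, genes and mitochondrial share, 21945 cells remained, between 4308 and 6081 per library. The paper reports fewer cells in both groups after its own filtering. Median depths ran from 4814 UMIs per cell in Normal_1 to 7186 in Injury_2. The libraries shared 8 to 13 cell barcodes per pair. Clusters were rebuilt without the 3 genes and named from marker genes. The samples are labelled urothelium, but only 9.31% (Injury_1), 6.40% (Injury_2), 10.2% (Normal_1) and 2.84% (Normal_2) of cells were epithelial-like, while 33.4%, 43.6%, 28.5% and 53.9% were fibroblast-like. Normal_1 stood apart in depth and in its share of endothelial-like cells, 41.2% against 15.9% to 26.2% in the other libraries.

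PIGR was found mainly in epithelial-like cells. The 1532 epithelial-like cells held 1246 of its 1303 UMIs (95.6%). Its level is given in CPM, the UMIs of the gene per 1000000 UMIs of the class in a library, and was 52.5 ± 75.5 in epithelial-like cells (SD over the 4 libraries, n = 4). The next highest named classes were B cell-like cells at 4.69 ± 6.63 (2 libraries with at least 20 such cells, n = 2), mast cell-like cells at 0.958 ± 1.92 and macrophage-like cells at 0.716 ± 1.17 (n = 4 each), and the unnamed clusters stood at 1.55 ± 1.99 (n = 4) from 2 UMIs. The levels of the 3 named classes overlapped between libraries and rested on 5, 1 and 12 UMIs in all.

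**Figure D1:**
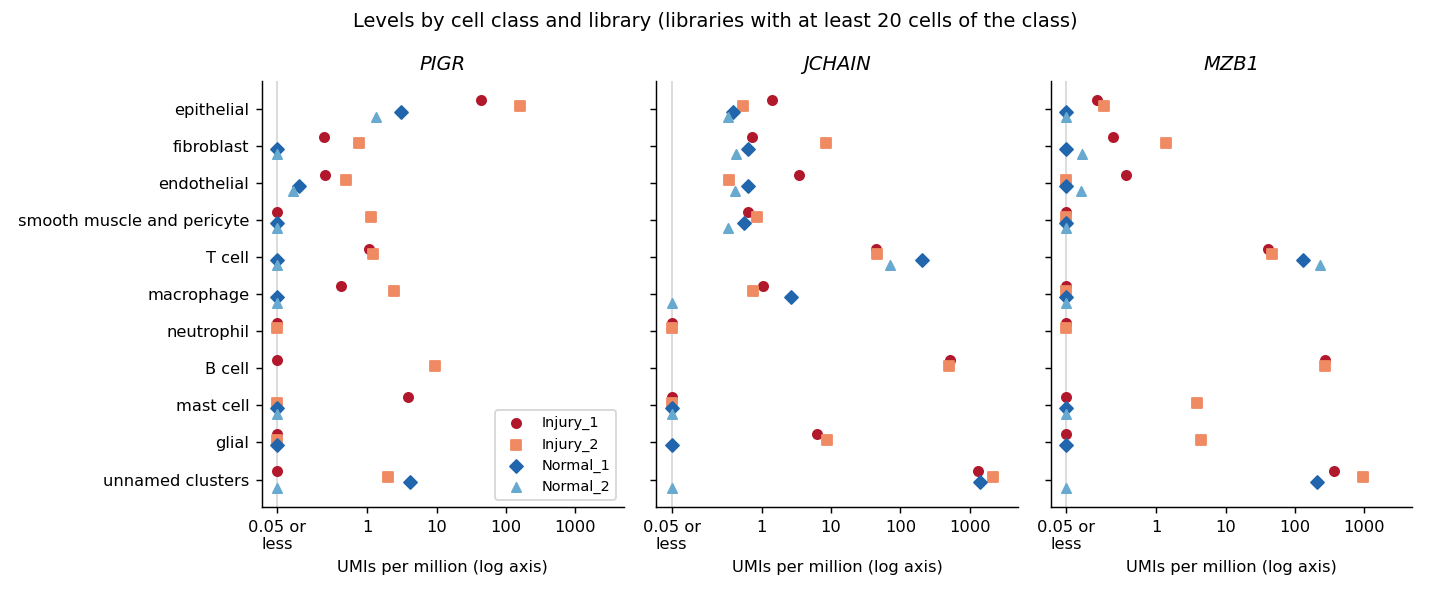
Each point is the level of the gene named above the panel, in CPM (horizontal log axis, levels of 0.05 or less drawn at the left edge), in 1 cell class (vertical axis) of 1 library (colour and shape). PIGR is highest in epithelial-like cells, where Injury_1 and Injury_2 lie at 43.7 and 162 and the normal libraries at 3.03 and 1.32, while JCHAIN and MZB1 are highest in unnamed clusters, B cell-like and T cell-like cells.

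In epithelial-like cells PIGR stood at 43.7 CPM in Injury_1 and 162 in Injury_2, against 3.03 in Normal_1 and 1.32 in Normal_2. Both injured libraries lay above both normal libraries, as they did for 39.4% of the genes tested in this class, and the injured libraries also differed from each other by more than the normal ones did. The group means were 103 ± 83.5 in injured and 2.17 ± 1.22 in normal samples (SD, n = 2 each). The 4 values rested on 317, 909, 16 and 4 UMIs. In the edgeR quasi-likelihood test on UMIs summed per library, PIGR rose in injured epithelial-like cells with a log2 fold change of 5.28 (SE 0.82), and the Benjamini-Hochberg adjusted p over all 7046 genes tested was 0.0436. In the same fit 44 genes, 0.624% of those tested, were called higher in injured cells. The call was lost when Normal_1 was left out (log2 fold change 5.93, adjusted p = 0.0642) and when Normal_2 was left out (4.99, adjusted p = 0.0542). Without Injury_2, the library with the higher level, it was kept at 4.0 (adjusted p = 0.0159).

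Most of the signal lay in a minority of cells. At least 1 PIGR UMI was found in 141 of 566 epithelial-like cells of Injury_1 (24.9%, 95% Wilson interval 21.5% to 28.6%), in 98 of 354 of Injury_2 (27.7%, 23.3% to 32.6%), in 14 of 441 of Normal_1 (3.17%, 1.90% to 5.26%) and in 3 of 171 of Normal_2 (1.75%, 0.598% to 5.03%). These intervals cover counting error only. In endothelial-like cells, a type not known to carry the receptor, the share was 0.169%, 0.342%, 0.0564% and 0.0633% in the same order, at median depths of 4654 to 6407 UMIs against 11932 to 19902 in epithelial-like cells. Thinned to 1000 UMIs per cell, the epithelial shares were 4.77%, 8.39%, 0.289% and 0.102%, and the endothelial shares were 0.0483%, 0.0555%, 0.0154% and 0.0103%. At equal depth the injured libraries were still the higher ones, with 17, 8, 25 and 9 epithelial-like cells too shallow to be counted.

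The 2 injured libraries had about the same share of PIGR-positive cells, and Injury_2 had more UMIs in its highest cells. At least 3 UMIs were found in 29 epithelial-like cells of Injury_1 and 43 of Injury_2, and at least 10 in 5 and 20. No normal epithelial-like cell had more than 2. The highest cell held 20 UMIs in Injury_1 and 79 in Injury_2. Cells with at least 10 UMIs carried 24.0% of the epithelial PIGR UMIs of Injury_1 and 79.8% of those of Injury_2, and without these cells the injured levels were 33.6 and 34.7, against 3.03 and 1.32 in the normal libraries. The 25 cells were picked by their own PIGR UMIs and no normal cell reached 10, so these levels only describe where the UMIs lay. Cells with at least 3 UMIs had median depths of 12078 and 16340 UMIs, and all epithelial-like cells of the same libraries, these included, 11932 and 16316. Of them, 8 and 5 had doublet scores in the top 5% of their libraries. Outside the epithelial-like class 1 cell, macrophage-like and from Injury_2, had 3 or more.

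**Figure D2:**
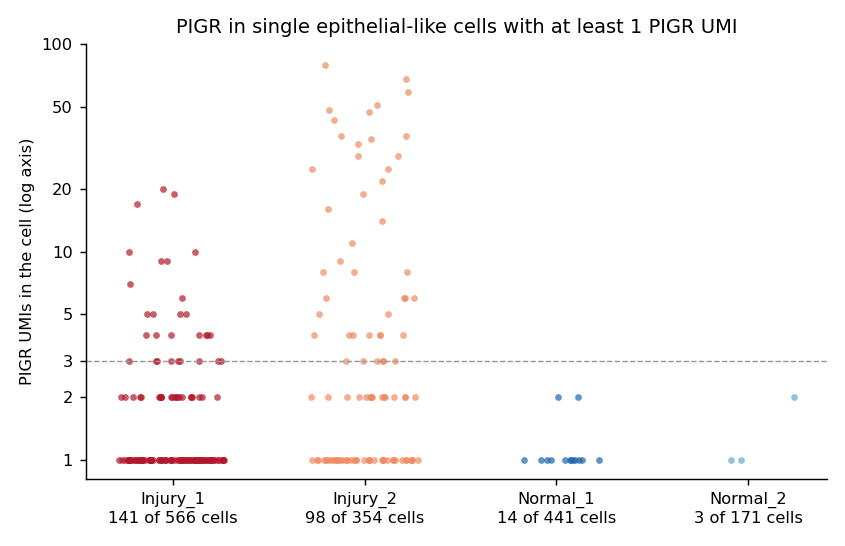
Each point is 1 epithelial-like cell with at least 1 PIGR UMI, by library (horizontal axis, with the number of such cells of all epithelial-like cells) and its PIGR UMIs (vertical log axis, points spread sideways only). Points above the dashed line at 3 UMIs, up to 20 and 79, come from the injured libraries, and no cell of the normal libraries lies above 2.

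The urothelium is layered, with KRT5-bearing basal cells below and uroplakin-bearing intermediate and umbrella cells above, so PIGR was compared between epithelial-like cells with a UMI of KRT5 and those with a UMI of a uroplakin (UPK1B or UPK3B). In cells with a uroplakin and no KRT5 the injured levels were 55.9 and 195, against 6.89 in Normal_1 and 0 in Normal_2. In cells with KRT5 and no uroplakin it was 9.23, 81.8, 1.01 and 3.28 CPM. The uroplakin-detected cells were higher in 3 of 4 libraries and lower in Normal_2, where the uroplakin-detected group had only 25 cells and 0 UMIs (0 of 25 cells allows a share of cells with a UMI of up to 12%) and the KRT5-detected group 4 UMIs. The mean difference was 0.79 ± 0.93 (SD, n = 4) on the log2(level + 10) scale, with p = 0.25 in a two-sided exact sign-flip permutation test, whose smallest possible p with 4 libraries is 0.13.

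Every one of these cell groups was higher in both injured libraries than in both normal ones. The injured and normal means were 125 ± 98.3 and 3.45 ± 4.87 in uroplakin-detected cells and 45.5 ± 51.3 and 2.15 ± 1.60 in KRT5-detected cells. They were 35.3 ± 26 and 0 in cells with both, and 160 ± 172 and 1.23 ± 1.74 in cells with neither (SD, n = 2 each). In each of the 4 groups the exact permutation p was 0.33, the smallest that 2 against 2 samples allow. The cells with both had only 14 and 6 cells in the normal libraries. Uroplakin UMIs were seen in 78.4% and 57.9% of injured and 30.2% and 18.1% of normal epithelial-like cells. The order of the groups was the same within each of these cell groups, whose make-up differed between the libraries.

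**Figure D3:**
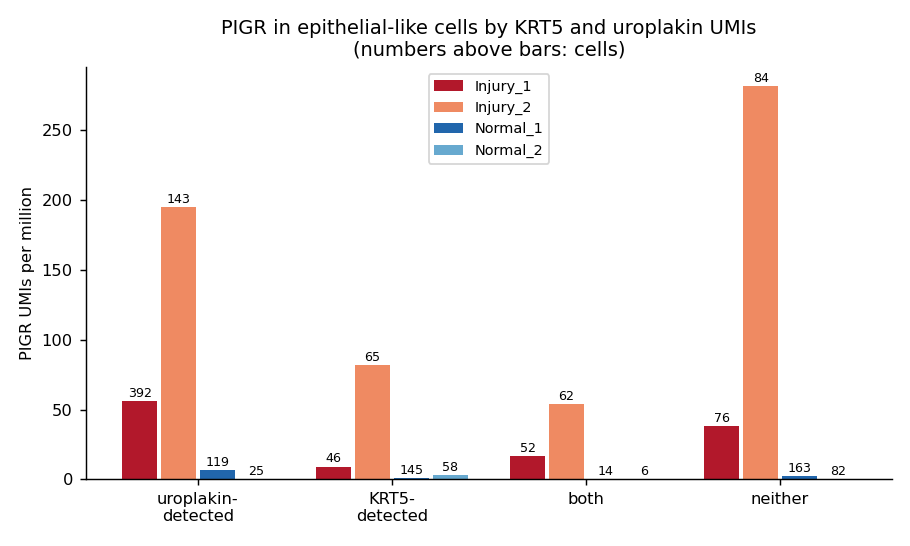
Bars give the PIGR level (CPM, linear axis from 0) in epithelial-like cells split by whether a UMI of a uroplakin, of KRT5, of both or of neither was found, for each library (colour), with the number of cells above each bar. The injured bars exceed the normal bars in every split, from 55.9 and 195 against 6.89 and 0 in uroplakin-detected cells to 9.23 and 81.8 against 1.01 and 3.28 in KRT5-detected cells.

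The epithelial-like cells fell into 2 clusters, and the clusters gave the same order. One was led by SPP1, CRISP3, CYP4B1 and HSD11B2 and had the higher uroplakin levels. PIGR stood there at 70.2, 281, 4.82 and 1.25 CPM in Injury_1, Injury_2, Normal_1 and Normal_2. The leading genes of the other held SERPINB5, AQP3, KRT5, LAMB3 and KRT15, genes of basal cells, and also PTN, MMP1, INSL5 and CDH1. PIGR stood there at 16.3, 36.5, 1.44 and 1.34. The first cluster held 66.1%, 60.5%, 56.2% and 35.7% of the epithelial-like cells in that order, so the second held most of them in Normal_2. The cells of the second cluster also differed between the groups in other genes, with UPK3B at 89.0 and 28.5 CPM in injured and 3.59 and 1.79 in normal samples, and KRT5 at 101, 295, 329 and 142. The part of this shift in the PIGR difference was not tested. Fitted alone, the second cluster gave a log2 fold change of 3.89 (SE 0.66, edgeR adjusted p = 0.0331) and the first 5.48 (SE 0.83, adjusted p = 0.0504).

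The machinery that moves the receptor was measured for 8 of the 20 genes listed, and all 8 passed the filter in epithelial-like cells. By edgeR none was called, against 1.66% of all genes tested, and the median log2 fold change was 0.47 against -0.0039 over all genes tested. RAB25, a small GTPase of recycling vesicles in epithelia, had levels of 442 and 435 CPM in injured and 232 and 194 in normal samples, with a log2 fold change of 0.79 (SE 0.23, adjusted p = 0.137), and was called by DESeq2 (adjusted p = 0.037). RAB11A, a GTPase of the same recycling compartment, stood at 852, 626, 521 and 366, with 0.49 (SE 0.26, adjusted p = 0.345). SNX17, a sorting nexin, gave 0.45 (SE 0.25, adjusted p = 0.361). Both injured libraries were above both normal ones for RAB25, RAB11A and SNX17, as they were for 39.4% of the genes tested in this class.

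Of 24 genes listed as regulators of PIGR, receptors and transcription factors of the interferon, TNF, IL-4 and IL-17 pathways among them, 15 were measured and 14 tested in epithelial-like cells. None was called higher and 1, NFKB1, was called lower, where 1.04% of all genes tested were called lower. NFKB1, a subunit of NF-kappaB, stood at 52.4 and 43.8 CPM in injured and 121 and 116 in normal samples, and fell by 1.56 on the log2 scale (SE 0.22, edgeR adjusted p = 0.0403). The call was lost without Injury_1 (-1.63, adjusted p = 0.228) and without Injury_2 (-1.48, adjusted p = 0.238), with a fold of nearly the same size. The list's median log2 fold change was -0.47. Of 7 measured genes of secreted mucosal defence, 2 were tested and none was called: ELF3, an epithelial transcription factor, gave -0.99 (SE 0.22, adjusted p = 0.0893), and SPINK5, a protease inhibitor, -0.65 (SE 0.39, adjusted p = 0.395).

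The genes whose pattern was most like that of PIGR over 35 points, each a cell class in a library with at least 20 cells, were CES3 (Pearson r = 0.957 of log2(level + 10)), INSL5 (0.935), POF1B (0.872), HSD11B2 (0.857) and CSTA (0.856), out of 4699 genes compared. The points share libraries and depths, and the values are a description. Each point takes the epithelial-like class whole, and INSL5 was among the leading genes of its cluster with the basal cell genes. INSL5, an insulin-like peptide, and CES3, a carboxylesterase, had, in the fit of injured against normal epithelial-like cells, log2 fold changes of 4.40 (SE 0.45, adjusted p = 0.0273) and 3.43 (SE 0.49, adjusted p = 0.0403). Since the points include these same libraries, a similar difference is built into the choice of the genes. The call of CES3 was lost without Injury_2 (2.82, adjusted p = 0.0505).

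JCHAIN and MZB1 came from a few cells of very high content. Cells with at least 3 JCHAIN and at least 1 MZB1 UMIs numbered 30 of 21945. Injury_1 had 13 of them and Injury_2 had 14, Normal_1 had 2 and Normal_2 had 1. They held 94.8%, 91.6%, 95.7% and 66.7% of the JCHAIN UMIs of their libraries and 98.0%, 95.7%, 100% and 97.1% of the MZB1 UMIs. A single cell carried up to 438 JCHAIN UMIs and 133 MZB1 UMIs. No PIGR UMI was found in any of the 30 cells, and of all cells with a JCHAIN UMI, 2 in Injury_1, 4 in Injury_2 and none in the normal libraries had a PIGR UMI.

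As shares of all cells these were 0.214% (95% Wilson interval 0.12% to 0.365%), 0.253% (0.151% to 0.425%), 0.0464% (0.0127% to 0.169%) and 0.0166% (0.00293% to 0.0939%). Both injured libraries lay above both normal ones. The mean difference was 0.202 percentage points, and the two-sided exact permutation p of 0.33 is the smallest that 2 against 2 samples allow. The gate uses the 2 genes' own values. Of these cells 10, 8, 2 and 0 were in the top 5% of doublet scores of their libraries, and without cells of such scores 3, 6, 0 and 1 remained, a difference of 0.0744 percentage points. Their median depth was 9137, 12733, 19721 and 25015 UMIs, against 6755, 7186, 4814 and 6759 over all cells. The barcodes removed by the limits on UMIs, genes and mitochondrial share held a further 3, 2, 2 and 1 that passed the gate.

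**Figure D4:**
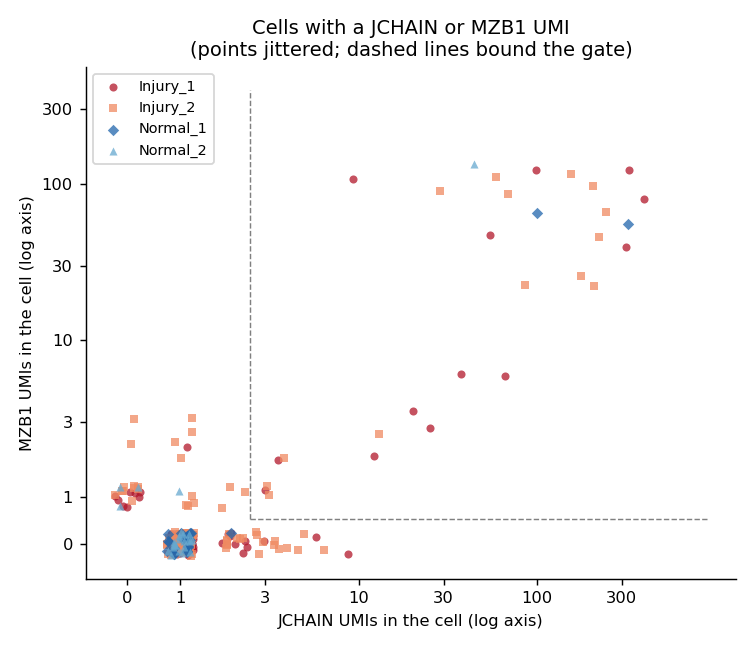
Each point is 1 cell with a UMI of JCHAIN or MZB1, placed by its JCHAIN UMIs (horizontal log axis) and its MZB1 UMIs (vertical log axis), with 0 drawn as its own position and points jittered, and coloured by library. The 30 cells up and right of the dashed lines (at least 3 JCHAIN and 1 MZB1 UMIs) reach 438 and 133 UMIs and come mostly from the injured libraries (27 of 30).

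Over all cells of a library, JCHAIN stood at 32.8 and 37.3 CPM in the injured libraries, 18.9 in Normal_1 and 1.42 in Normal_2, and MZB1 at 11.3, 16.7, 4.76 and 3.09. The injured libraries were the higher ones for both genes, as they were for 23.5% of the genes tested over all cells. Normal_1 owed its JCHAIN level to 2 cells with 341 and 107 UMIs. Neither gene passed the edgeR test: the log2 fold change of JCHAIN was 1.87 (adjusted p = 0.565) and that of MZB1 was 1.85 (adjusted p = 0.178). MZB1 was called by DESeq2 (1.86, adjusted p = 0.000543) and gave 3.18 (adjusted p = 0.397) at a mitochondrial limit of 10% and 0.79 (adjusted p = 0.881) without the top doublet scores, and JCHAIN 4.51 (adjusted p = 0.0804) without Normal_1 and 1.00 (adjusted p = 0.0743) without Normal_2. PIGR over all cells gave 5.23 (SE 0.96, adjusted p = 0.171), from levels of 7.39, 21.7, 0.726 and 0.135. The background was 1 gene called of 10475 tested (0.00955%), with 1232 at an unadjusted p under 0.05. A level summed over a whole library does not separate the number of cells of a type from the RNA per cell. Inside the gate JCHAIN stood at 10871 and 8968 CPM in Injury_1 and Injury_2, 11359 in Normal_1 and 1679 in Normal_2. MZB1 stood there at 3883, 4196, 2992 and 5317, from 13, 14, 2 and 1 cells that were picked by these genes.

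The 30 cells were spread over several clusters. A cluster of 364 cells held 15. It had a median of only 872 UMIs per cell and was left unnamed. Its leading genes held SEC11C, a listed marker of antibody-secreting cells, and none of the endothelial markers raised in it. ALAS2 and BPGM, genes of red blood cells, were also among its leading genes. The B cell-like cluster held 8, T cell-like clusters held 5, and 1 each lay among endothelial-like and fibroblast-like cells. Of the 5, 4 lay in a T cell-like cluster of 161 cells. Its leading genes held CORO1A, GZMH and SKAP1, the cell division genes KNL1, NDC80, SMC2 and AURKB, and no listed T cell marker. Of the T cell markers, ZAP70 and CD2 were found in 1 of the 30 gated cells each and TNFRSF25 in 6. The fibroblast-like cell, from Injury_2 and with 162 JCHAIN UMIs, decided the level of JCHAIN in its whole class. The edgeR fit there gave a log2 fold change of 3.32 with this cell (adjusted p = 0.409) and 0.76 without it (adjusted p = 0.699). Of 8764 genes tested 0 were called (0%), 964 had an unadjusted p under 0.05, and DESeq2 called 264. In endothelial-like cells JCHAIN was below the filter on low counts.

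The 25 cells with at least 10 JCHAIN UMIs differed from the 5 with 3 to 9. The first had the B cell gene BLK at 18.4 CPM and MS4A1, which encodes CD20, at 6.13, and 3 of them were in the B cell-like cluster. The other 5 all were, with BLK at 438 and MS4A1 at 501. B cell-like cells outside the gate had BLK at 701 and MS4A1 at 265, and JCHAIN at 220.

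Genes of antibody-secreting cells that the gate did not use were then read in the 30 cells. Of 28 genes listed, 17 were measured, and 8 of these were higher inside the gate than in all other cells in each of the 4 libraries, against 1.20% of the 14954 genes with a UMI. The 14954 genes were of any level, and a gene with few UMIs could hardly be found in the 2 and 1 gated normal cells. The comparison is therefore not like for like. SEC11C, a subunit of the signal peptidase that trims nascent secreted proteins, stood at 2209, 1238, 938 and 1359 CPM inside the gate in Injury_1, Injury_2, Normal_1 and Normal_2, and at 109 to 129 outside. TXNDC5, a disulfide isomerase, stood at 967, 1004, 659 and 1239 against 27.7 to 74.9. HSP90B1, the endoplasmic reticulum chaperone GRP94, stood at 7460, 3498, 6998 and 7675 against 1446 to 2255. PDIA4, another isomerase, stood at 943, 553, 1040 and 1119 against 144 to 291. For each of the 4 genes the exact sign-flip p over 4 libraries was 0.13, the smallest it can be, and the normal values rested on 2 and 1 cells.

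**Figure D5:**
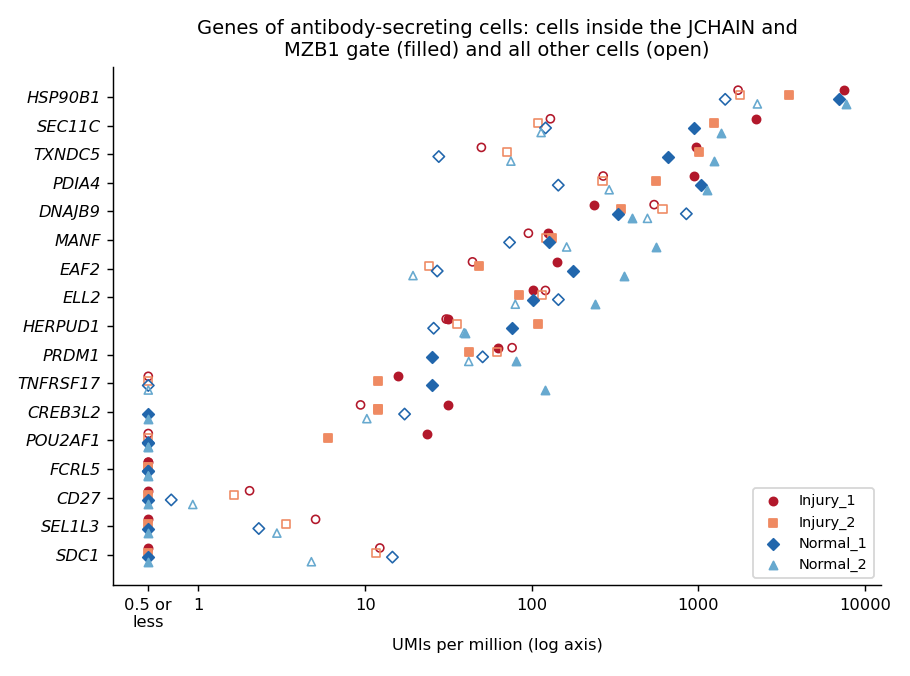
Each row is a listed gene of antibody-secreting cells, with its level (CPM, horizontal log axis, levels of 0.5 or less drawn at the left edge) in cells inside the JCHAIN and MZB1 gate (filled) and in all other cells (open) of each library (colour and shape). SEC11C, TXNDC5, HSP90B1 and PDIA4 lie to the right inside the gate in all 4 libraries, whereas SDC1, CD27, FCRL5 and SEL1L3 are at 0 there.

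TNFRSF17, the survival receptor BCMA of plasma cells, was found in 6 of the 30 cells and stood at 22.3 CPM against 0.191 in all other cells, both over the libraries together. EAF2, HERPUD1 and MANF were the other genes higher in all 4 libraries, at 117 against 28.9, 72.6 against 33.6 and 159 against 118. HERPUD1 was nearly level in Injury_1 (31.4 against 30.6) and Normal_2 (40.0 against 39.2), and MANF in Injury_2 (132 against 122). The list did not move as 1 block. PRDM1, the transcription factor of plasma cell fate, stood at 50.3 inside and 58.6 outside, ELL2 at 103 and 111, and DNAJB9 was lower inside the gate in all 4 libraries, at 307 against 595. SDC1, which encodes the plasma cell surface marker CD138, CD27, FCRL5 and SEL1L3 had 0 UMIs in the 30 cells. POU2AF1, a B cell co-activator, was at 11.2 against 0.0701, from 4 UMIs, and CREB3L2 at 16.8 against 11.6. B cell-like cells outside the gate had EAF2 at 146, DNAJB9 at 456, POU2AF1 and SEL1L3 at 11.6 and FCRL5 at 2.90. These levels were above those of the gated cells. The other listed genes with a UMI in the gated cells were lower there, with PRDM1 at 4.35, HERPUD1 at 15.9, MANF at 40.6 and TNFRSF17 at 0.

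Genes without a symbol in the matrices took 68.5%, 73.6%, 72.3% and 54.5% of the UMIs of these cells, against 38.0% to 40.1% in other cells. One of them, ENSOCUG00000027394, held 20.7%, 19.2%, 47.6% and 8.35% of all UMIs of these cells, and another held more in Injury_2 (27.7%) and Normal_2 (9.16%). ENSOCUG00000021096 was the single gene called in the fit over all cells (edgeR adjusted p = 0.04). It had 7191 and 7734 UMIs inside the gate in Injury_1 and Injury_2, with 217 and 45 in other cells. It had 1 UMI in Normal_1 and 0 in Normal_2. Most of its UMIs lay in 5 gated cells of each injured library, so its call rested on 10 cells. It was lost without the top doublet scores (adjusted p = 0.298), while the direction was kept in all 11 alternatives.

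Outside the gate JCHAIN was found mainly in B cell-like cells. It was seen in 90 of 197 such cells (45.7%), at a median depth of 3128 UMIs, and in 0.979% of the epithelial-like class, 0.482% of the fibroblast-like class and 0.33% of the endothelial-like class, whose median depths were 13733, 7233 and 5816. By library, the level in B cell-like cells outside the gate was 263 and 210 in the injured libraries, 207 in Normal_1 and 173 in Normal_2, from 46, 133, 11 and 7 cells. Injury_2 and Normal_1 were next to each other in this order, closer than the 2 injured libraries were. The number of these cells differed more than their level. With its gated cells included, the B cell-like class made up 0.806%, 2.50%, 0.255% and 0.116% of the libraries. MZB1 was found in 17 of the 197 cells (8.63%) and in at most 0.862% of any other named class.

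Genes of most similar pattern to JCHAIN over the 35 points were MZB1 (r = 0.967), BANK1 (0.802), B3GNT7 (0.798), TNLG1E (0.789) and BLK (0.778), and to MZB1, after JCHAIN, TNLG1E (0.853), USP24 (0.825), CRLF3 (0.782) and ERCC6L (0.781). BANK1 and BLK encode signalling proteins of B cells.

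Genes that recruit and keep antibody-secreting cells were measured for 13 of 25 listed. None was called by edgeR over all cells or in epithelial-like, endothelial-like or fibroblast-like cells. The other classes, lymphocytes among them, were not fitted. In all cells 8 were tested, with a median log2 fold change of 0.80 against -0.019 over all genes tested. VCAM1, an adhesion molecule for lymphocytes, stood over all cells at 437 and 210 CPM in injured and 159 and 130 in normal samples, a log2 fold change of 1.14 (SE 0.37, adjusted p = 0.358). In fibroblast-like cells VCAM1 stood at 636, 314, 192 and 134 (1.68, SE 0.41, edgeR adjusted p = 0.238), where DESeq2 called it (adjusted p = 0.00278). ITGA4, a subunit of the integrin that binds it, stood over all cells at 35.9, 29.9, 20.7 and 12.6 (0.99, SE 0.27, adjusted p = 0.288). For both genes the injured libraries lay above the normal ones, as 23.5% of genes did over all cells and 16.1% in fibroblast-like cells. ALDH1A1, an enzyme of retinoic acid synthesis, gave -0.43 (SE 0.24, adjusted p = 0.561), and CXCR4, the receptor for the plasma cell chemokine CXCL12, 0.083 (SE 0.38, adjusted p = 0.959).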

How the data were processed

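Droplet libraries (Chromium 3' kit, version 3) of 4 rabbit bladder mucosa samples were analysed from the deposited matrices of raw UMI counts per gene and barcode. Per the file headers the authors made them with Cell Ranger 6.0.1, and the genome release is not given in the sources used here. Barcodes needed 500 UMIs, 200 genes and a share of mitochondrial UMIs (13 genes) not above 15%. Seurat 5.3.0 clustered them with the study's settings (scaling to 10000, 2000 variable genes, CCA integration, 30 components, resolution 0.8), leaving out PIGR, JCHAIN and MZB1, and clusters with at least 3 raised markers of a class were named from marker lists. Doublet scores (Scrublet in scanpy 1.11.5) were used to remove cells in 1 alternative only. Otherwise a cluster with most cells in the top 5% of scores was left unnamed. In the main clustering this held for a cluster of 129 cells with endothelial markers raised, 98.4% of them with such scores.

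Levels are summed UMIs of a gene per 1000000 UMIs (CPM), with a pseudocount of 10 on the log2 scale. The cells kept held 24798544 to 44542420 UMIs per library. Only 9771 of 18475 genes carry a symbol, and listed genes were looked up by symbol alone. Summed counts were compared between groups with edgeR 4.0.16 (quasi-likelihood, TMM, filterByExpr, Benjamini-Hochberg, threshold 0.05) after tests on simulated data, with DESeq2 1.42.0 as an alternative. Genes named are the 3 members, the called members of each list or up to 4 of the highest level, antibody-secreting genes of at least 20 CPM in the gated cells, and the 5 genes of most similar pattern to each member. One gene that this rule names is not reported here. The members and lists were chosen with earlier results of these data known. The ranges of 3 to 9 and at least 10 JCHAIN UMIs, the 2 genes without a symbol, BLK and MS4A1 in the gated cells and the antibody-secreting genes under 20 CPM were chosen after their values were seen. Alternatives were another normalization, no filter, other limits on cells, other clusterings, the replicate block and each library left out.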

Additional observations from a re-analysis of the deposited data

Results flagged for a closer look

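PIGR also appeared in data left out of the comparisons. In the barcodes removed by the limits on UMIs, genes and mitochondrial share, its level was 36.2 and 189 CPM in the injured libraries, 2.28 in Normal_1 and 0.853 in Normal_2, from 730, 612, 1515 and 857 barcodes, so both injured libraries lay above both normal ones there too, with up to 78 PIGR UMIs in 1 barcode. JCHAIN in the same barcodes stood at 25.0, 9.21, 55.7 and 15.3, and MZB1 at 15.1, 3.68, 27.9 and 5.12, with no such order.

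The T cell-like class went the other way from several classes for JCHAIN and MZB1. JCHAIN there was 44.2 and 46.7 CPM in injured and 206 and 72.0 in normal samples, a difference of means of -93.4, while both injured libraries lay above both normal ones in epithelial-like, fibroblast-like, and smooth muscle and pericyte-like cells. MZB1 in T cell-like cells was 41.1 and 47.3 against 131 and 228, a difference of -135, while it was higher in injured epithelial-like and fibroblast-like cells and in the unnamed clusters. JCHAIN rested on 10, 3, 2 and 1 UMIs in epithelial-like and 2, 3, 1 and 1 in smooth muscle and pericyte-like cells, injured libraries first. MZB1 rested on 1, 1, 0 and 0 in epithelial-like cells. In fibroblast-like cells of Injury_2, 1 gated cell held 162 of 180 JCHAIN and 25 of 29 MZB1 UMIs. Of all genes tested, 39.4% in epithelial-like and 16.1% in fibroblast-like cells had both injured levels above both normal ones. The difference between the classes was not tested. The T cell-like values came almost wholly from 5 cells that also passed the JCHAIN and MZB1 gate, 2 in Injury_1 and 1 in each other library. Of the 5, 4 lay in the cluster whose leading genes held cell division genes and no listed T cell marker.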

How the results depend on the processing

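PIGR in epithelial-like cells kept its direction under all 19 alternatives, and its adjusted p lay under 0.05 in 13. The call was lost with a replicate block (log2 fold change 4.84, adjusted p = 0.0614) and, in fits chosen after seeing the data, in the cluster with less KRT5 (5.48), in cells without a uroplakin UMI (5.74) and in cells with one (4.43). Leaving out 1 library gave 4.0 to 5.99. PIGR over all cells passed with DESeq2 (5.22) and with the replicate block (5.12), and ranged from 4.19 to 6.63 with 1 library left out. MZB1 over all cells passed with DESeq2 only (1.86), with 1.51 to 2.13 when a library was left out, and it had no value without the gated cells. JCHAIN over all cells passed under none of 12 alternatives, with 1.00 to 4.51 when a library was left out. JCHAIN in fibroblast-like cells passed without a filter on low counts (3.34) and with DESeq2 (3.30), and ranged from 0.64 to 4.18 when a library was left out, past the threshold without Injury_1. JCHAIN in endothelial-like cells had too few counts for the planned test. The uroplakin-against-KRT5 difference of PIGR and the share of gated cells kept their direction throughout, with 0.46 to 1.18 on the log2 scale and 0.182 to 0.222 percentage points when a library was left out. Of the other genes named, CXCR4 over all cells changed sign when a library was left out (-0.33 without Normal_1, up to 0.69 without Normal_2), NFKB1 missed the threshold with the replicate block (adjusted p = 0.0715) and CES3 at a mitochondrial limit of 10% (adjusted p = 0.067), as did the gene ENSOCUG00000021096 (adjusted p = 0.0514). Counts of called genes moved far more. Over all cells (1 called) they were 67 without a filter, 425 with DESeq2, 276 with the replicate block, 0 at a mitochondrial limit of 10% and 0 without the highest doublet scores, and 1 to 137 with a library left out. In epithelial-like cells (117) they were 967, 485 and 58 under the first 3 of these settings and 50 to 476 with a library left out. In endothelial-like cells (0) they were 4, 55 and 3, with 2 without integration and 0 to 21 with a library left out, and in fibroblast-like cells (0) 586, 264 and 153, with 5 to 50. The cause was not tested. Replicate numbers of the labels link no animals. Deviations of same-numbered libraries correlated at 0.0930 in epithelial-like and 0.228 in all cells. With 2 libraries in a group, both pairs give the same value by construction. Depth limits the normal PIGR levels, which rest on 16 and 4 UMIs, and the gate, which holds 3 normal cells. A fit that leaves out 1 library has 1 sample in a group, which is assumed to vary like the other group.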
